A study of Rattus norvegicus with 6 samples.

Results

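Neutrophil genes were followed in rat liver RNA, with and without transarterial embolization. The genes were 9 of the 32623 annotated in the deposited table, taken by symbol (S100a8, S100a9, Csf3r, Trem1, Il1r2, Mmp8, Mpo, Ltf and Camp), and each symbol matched 1 row. The HCC group (3 libraries) is the untreated control of a hepatocellular carcinoma study, and the TAE group (3 libraries) had undergone transarterial embolization, the blockage of the arterial supply of a liver tumour. All 6 samples are labelled liver, without saying whether tumour or surrounding tissue was taken, and the strain, the age, the tumour model and the time since embolization are not stated in the labels. The replicates are called biosamples and are not said to come from separate animals, so p-values cover only the spread among these libraries, which could be technical.

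Neutrophils are short-lived granulocytes that leave the blood early when tissue is injured. They mature in bone marrow under granulocyte colony-stimulating factor (G-CSF), and their granule proteins are transcribed mainly in marrow precursors, so that mature cells in tissue carry little mRNA for the proteins of the first granules. The calcium-binding proteins S100A8 and S100A9, the G-CSF receptor and several receptors of inflammation remain transcribed in mature cells, and monocytes and some macrophages express several of the same genes.

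Of the 9 genes, 6 had enough counts to be tested and 3 (Mpo, Ltf and Camp) did not. All 6 tested genes had positive log2 changes (TAE minus HCC), as did 46.9% of all tested genes, with a median of 1.36 over the 6. None of them passed an adjusted p of 0.05 in edgeR's quasi-likelihood test over 14499 genes, where 2.7% of genes passed as higher. At an unadjusted p of 0.05, 5 of the 6 were higher, where 15.9% of all tested genes were, and with DESeq2, another count test, S100a8 and Trem1 passed (10.2% of all tested genes passed as higher there). Each of the 6 genes exceeded the minimum of the low-count filter in all 6 libraries, so none was admitted by the TAE libraries alone. The median log2 change over all tested genes was -0.03. In bulk tissue, a change in the number of cells of a type and a change in RNA per cell cannot be told apart.

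Total counts were 13448286 to 16604067 per library. The TAE libraries were less alike than the HCC libraries. Over genes with a mean count of at least 10, the log2 CPM (counts scaled to library size) of TAE replicate 2 correlated at 0.972 to 0.974 with the HCC libraries, 0.973 with TAE replicate 1 and 0.940 with TAE replicate 3. Without TAE replicate 2, S100a8, S100a9, Trem1 and Mmp8 passed in edgeR (14.6% of all genes tested then passed as higher). Without TAE replicate 1 or 3 or any HCC library none of the 9 genes passed (edgeR, 1 to 4 at an unadjusted p of 0.05). Without TAE replicate 3, 4.82% of all genes still passed as higher, but without TAE replicate 1 or any HCC library 0 did, and 0 or 1 passed in either direction while 1997 to 2243 had an unadjusted p under 0.05.

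For 7 of the 9 genes RefSeq gives a promoter window, from which the 250 bases before the gene start were read (GRCr8 assembly). The windows of S100a9, Mmp8 and Csf3r are shown because S100a9 and Mmp8 had similar profiles over the libraries and Csf3r a different one. Capitals mark matches on either strand to the core of the PU.1 site (GAGGAA), a C/EBP site (TTGCNNAA), an AP-1 site (TGANTCA) or a TATA box (TATAAA). PU.1 and the C/EBP factors are the main regulators of granulocyte development. The windows lie at chr2:178490623-178490872 on the minus strand (S100a9), chr8:13008640-13008889 on the plus strand (Mmp8) and chr5:143582970-143583219 on the plus strand (Csf3r).
S100a9: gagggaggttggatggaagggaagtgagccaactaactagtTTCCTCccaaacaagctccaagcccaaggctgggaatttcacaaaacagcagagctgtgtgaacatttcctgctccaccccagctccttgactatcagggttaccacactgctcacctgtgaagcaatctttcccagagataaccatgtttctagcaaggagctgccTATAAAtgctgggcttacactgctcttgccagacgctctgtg
Mmp8: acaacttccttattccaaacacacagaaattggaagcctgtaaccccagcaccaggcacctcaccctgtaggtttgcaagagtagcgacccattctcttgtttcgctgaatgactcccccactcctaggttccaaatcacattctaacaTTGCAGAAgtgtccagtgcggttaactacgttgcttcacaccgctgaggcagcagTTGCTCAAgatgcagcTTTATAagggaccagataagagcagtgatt
Csf3r: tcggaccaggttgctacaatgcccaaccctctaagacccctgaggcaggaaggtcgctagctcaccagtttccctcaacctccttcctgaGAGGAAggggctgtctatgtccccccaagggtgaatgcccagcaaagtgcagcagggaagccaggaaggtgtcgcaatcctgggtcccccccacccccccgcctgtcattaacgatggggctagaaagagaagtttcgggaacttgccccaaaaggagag
S100a9 had a PU.1 core match on the opposite strand at -209 to -204 and a TATA box match at -42 to -37, counted from the gene start. Mmp8 had C/EBP matches at -101 to -94 and -46 to -39 and a TATA box match at -30 to -25, the last on the opposite strand. Csf3r had a PU.1 core match at -160 to -155 and no TATA box letters. Of all 33469 windows of this length, 23.3% held the PU.1 letters, 9.22% the C/EBP letters, 6.34% the AP-1 letters and 12.9% the TATA letters. These matches describe letters and not binding sites.

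S100a8 and S100a9 encode the subunits of calprotectin, an abundant cytosolic protein of neutrophils that sequesters zinc and manganese and acts as an alarmin outside the cell. Levels are in FPKM, fragments scaled by gene length and library size. S100a8 (ENSRNOG00000011557, chromosome 2, 190073815 to 190074354 in the deposited table, whose build is not settled) stood at 5.72, 14.4 and 13.7 FPKM in HCC replicates 1 to 3 and at 45.0, 16.2 and 58.2 FPKM in TAE replicates 1 to 3. TAE replicates 1 and 3 were far above every control, and TAE replicate 2 was only just above the highest one. Every TAE library was above every control for 22.1% of all tested genes. On the TMM scale of the fit, the second TAE library (0.42 above the HCC mean, log2) fell below the second HCC library (0.45), so the separation of the groups depended on the scaling. S100a8 averaged 11.3 ± 4.82 FPKM in HCC and 39.8 ± 21.5 FPKM in TAE (SD over 3 libraries each). The fitted log2 change was 1.82 ± 0.58 (SE), with an adjusted p of 0.132 in edgeR. S100a8 passed with DESeq2 (adjusted p = 0.016).

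S100a9 (ENSRNOG00000011483, chromosome 2, 190097554 to 190100276) lies 23199 bases from S100a8 on the opposite strand. It stood at 10.3, 27.5 and 22.0 FPKM in the HCC libraries and at 61.3, 20.7 and 67.2 FPKM in the TAE libraries. Again TAE replicates 1 and 3 were high, and here TAE replicate 2 lay below HCC replicates 2 and 3, so that the groups overlapped. The means were 19.9 ± 8.77 and 49.7 ± 25.3 FPKM, with a fitted log2 change of 1.32 ± 0.55 (adjusted p = 0.213, edgeR). Both S100a8 and S100a9 were lowest in HCC replicate 1 and highest in TAE replicate 3. The ratio of S100a8 to S100a9 FPKM was 0.556, 0.524 and 0.624 in HCC and 0.734, 0.781 and 0.866 in TAE. All 3 TAE ratios thus exceeded all 3 HCC ratios, also in the second TAE library, and this ratio does not depend on the scaling between libraries. An exact permutation test of the ratio, chosen after its values were seen, gave a two-sided p of 0.1, the smallest that 3 against 3 allows. In the family of 4 ratios between these genes that were computed, the adjusted p was 0.2.

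**Figure D1:**
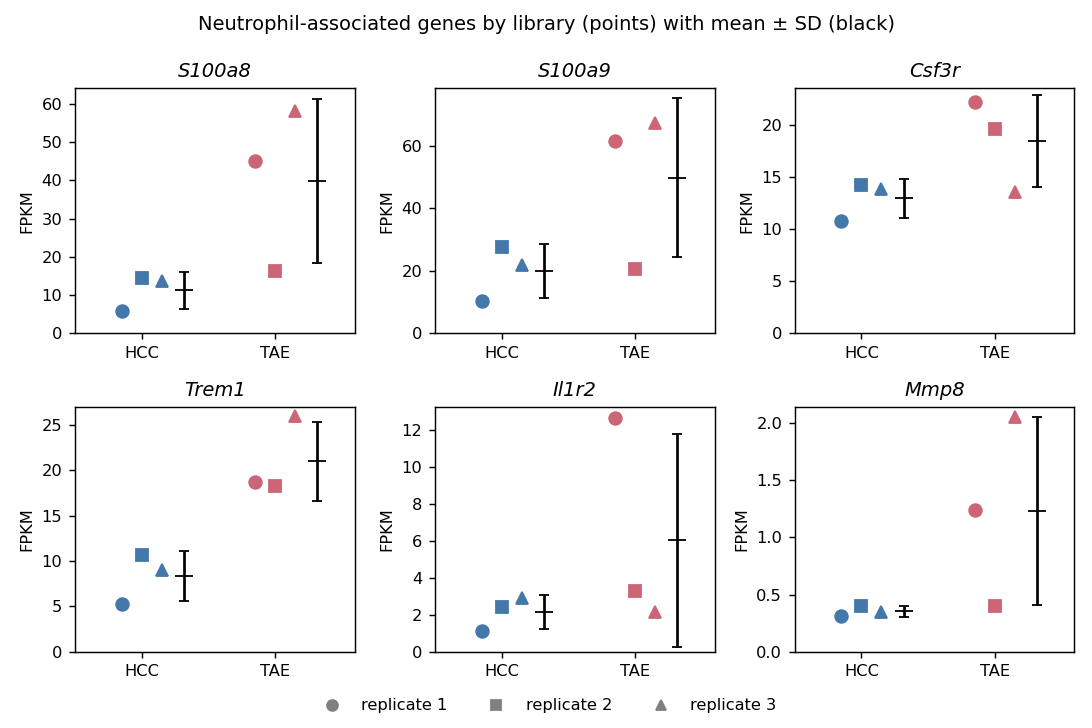
FPKM (vertical axes, starting at 0 and scaled per gene) of the 6 tested genes in 3 HCC libraries (blue) and 3 TAE libraries (red), with symbols for the replicate numbers and the mean ± SD in black. The second TAE library sits near the HCC libraries for S100a8, S100a9, Il1r2 and Mmp8, at 16.2, 20.7, 3.27 and 0.40 FPKM, and for Trem1 the lowest TAE value (18.3) is above the highest HCC value (10.7).

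Among the receptors, Csf3r, Trem1 and Il1r2 each had a different pattern over the TAE libraries. Csf3r encodes the G-CSF receptor, which drives the production and survival of neutrophils (ENSRNOG00000008759, chromosome 5, 144031402 to 144051600). It stood at 10.8, 14.2 and 13.8 FPKM in HCC and 22.2, 19.6 and 13.6 FPKM in TAE. The third TAE library, the highest for S100a8 and S100a9, was the lowest TAE library for Csf3r and lay within the HCC range of FPKM. On the TMM scale of the fit it stood 0.22 above the HCC mean (log2), above the highest HCC library (0.14). Whether the groups overlapped for Csf3r thus again depended on the scaling. The share of all genes that were separated on the TMM scale was not computed. Csf3r averaged 13.0 ± 1.88 and 18.4 ± 4.42 FPKM, with a fitted log2 change of 0.44 ± 0.18 (adjusted p = 0.198, edgeR), the smallest of the 6. The ratio of S100a8 to Csf3r FPKM was 0.530, 1.01 and 0.991 in HCC and 2.03, 0.825 and 4.29 in TAE, which overlapped (exact permutation test, two-sided p = 0.3). The ratio of S100a9 to Csf3r overlapped as well (exact p = 0.4).

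Trem1 encodes a receptor of neutrophils and monocytes that amplifies inflammatory signals through the adaptor TYROBP (ENSRNOG00000022859, chromosome 9, 14727976 to 14809447). It stood at 5.28, 10.7 and 9.02 FPKM in HCC and 18.7, 18.3 and 26.0 FPKM in TAE. All 3 TAE libraries exceeded all HCC libraries, the second included, as was the case for 22.1% of all tested genes. The means were 8.34 ± 2.78 and 21.0 ± 4.33 FPKM, with a fitted log2 change of 1.31 ± 0.34 (adjusted p = 0.0820, edgeR), which was the smallest p of the 6 genes. Trem1 passed in DESeq2, in limma on log2(FPKM + 1) (adjusted p = 0.0412, with 4.27% of all genes called higher), in edgeR with total-count scaling (0.0379, with 6.63%) and in edgeR without a low-count filter (0.0480, with 3.51%). The ratio of Trem1 to Csf3r FPKM was 0.489, 0.753 and 0.652 in HCC and 0.841, 0.936 and 1.91 in TAE, without overlap (exact permutation test, two-sided p = 0.1, adjusted p = 0.2 over the 4 ratios). An unnamed gene model overlaps Trem1 on the opposite strand and had at most 2 counts in any library.

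Il1r2 encodes the type 2 interleukin-1 receptor, a decoy that binds IL-1 without signalling (ENSRNOG00000014378, chromosome 9, 46840992 to 46881264). It stood at 1.11, 2.43 and 2.90 FPKM in HCC and at 12.7, 3.27 and 2.18 FPKM in TAE. Only the first TAE library was clearly above the controls, and the third lay among them. The means were 2.15 ± 0.93 and 6.03 ± 5.76 FPKM, with a fitted log2 change of 1.40 ± 0.69 (adjusted p = 0.269, edgeR), and without TAE replicate 1 the log2 change was 0.29.

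Mmp8 encodes neutrophil collagenase, a protease of the specific granules that cleaves fibrillar collagen (ENSRNOG00000009907, chromosome 8, 5768811 to 5778702). It had 11, 13 and 12 counts (0.31, 0.40 and 0.35 FPKM) in HCC and 44, 16 and 83 counts (1.24, 0.40 and 2.05 FPKM) in TAE. The control libraries were nearly level, the second TAE library was at their level and the other TAE libraries were higher. The means were 0.353 ± 0.0451 and 1.23 ± 0.825 FPKM, with a fitted log2 change of 1.81 ± 0.65 (adjusted p = 0.168, edgeR). Without TAE replicate 2 the log2 change was 2.27 (edgeR adjusted p = 0.0115), and without TAE replicate 3 it was 1.10.

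**Figure D2:**
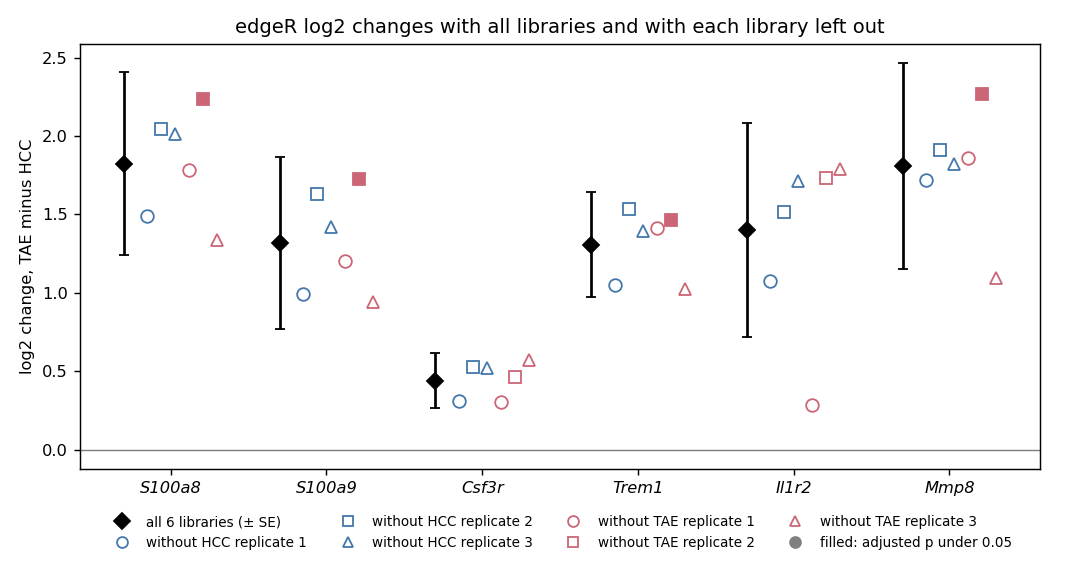
Log2 change of TAE minus HCC (vertical axis) from edgeR for the 6 tested genes with all libraries (black diamonds, ± SE) and with each library left out in turn (blue for an HCC library, red for a TAE library, filled where the adjusted p is under 0.05). The only filled symbols are those without TAE replicate 2, for S100a8, S100a9, Trem1 and Mmp8, and Il1r2 drops to 0.29 without TAE replicate 1.

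The remaining granule genes were close to the limit of detection. Mpo encodes myeloperoxidase, the enzyme of the primary granules that makes hypochlorous acid (ENSRNOG00000008310, chromosome 10, 75087892 to 75098260). It had 3, 1 and 6 counts in HCC and 10, 14 and 16 in TAE, so that all 3 TAE libraries exceeded the controls at these low counts. Among genes with enough counts to be tested, 22.1% had every TAE library above every control. Summed over the group and scaled to the total counts, Mpo was 3.52 times as frequent in TAE (95% exact interval 1.73 to 7.88, counting error only), and edgeR without a low-count filter gave an adjusted p of 0.197. The second TAE library, with 14 counts, was not low for Mpo.

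Camp encodes cathelicidin, an antimicrobial peptide precursor of the specific granules (ENSRNOG00000020733, chromosome 8, 117930546 to 117932518). It had 0, 9 and 2 counts in HCC and 17, 3 and 11 in TAE, and the groups overlapped. The count of 0 allows up to 3 counts, or 0.281 FPKM in that library. The summed ratio was 2.48 (95% exact interval 1.21 to 5.46, counting error only), and edgeR without a filter gave an adjusted p of 0.542. Ltf, which encodes the iron-binding lactoferrin of the specific granules (ENSRNOG00000031779, chromosome 8, 119290416 to 119313261), had 0, 0 and 1 counts in HCC and 1, 0 and 1 in TAE. Ltf was thus under the floor of 3 counts in every library (0.0654 to 0.0808 FPKM), no fold is given for it, and a difference was not detectable at this depth.

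By FPKM, a measure per length, the order in HCC was S100a9, Csf3r, S100a8, Trem1 and Il1r2, followed by Camp, Mmp8, Mpo and Ltf below 1 FPKM. In TAE it was S100a9, S100a8, Trem1, Csf3r and Il1r2, followed by Mmp8, Camp, Mpo and Ltf. Among the first 4 genes of each order, neighbours overlapped in mean ± SD, whereas Il1r2 lay below them without overlap. S100a9 nevertheless exceeded S100a8 in all 6 libraries, and S100a8 exceeded Trem1 in all 3 HCC libraries. Camp and Mmp8 overlapped in both groups. In HCC, Il1r2 lay above Camp and Mmp8 above Mpo without overlap, and Mpo and Ltf overlapped, whereas in TAE Il1r2 overlapped Mmp8, Camp overlapped Mpo, and Mpo lay above Ltf without overlap. S100a9 and S100a8 in TAE ranked above 91.8% and 89.6% of genes with any count, whereas Mpo ranked above 26.0%.

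Other neutrophil genes came from lists that leave out the 9 genes. The calls in these lists and in the marker lists of other cells depended on single libraries, as over all genes: 0 list genes passed without TAE replicate 1 or without any 1 HCC library. Of 12 further receptors and adhesion molecules 9 were tested, and 4 rose: Itgam, the integrin chain CD11b, C5ar1, the receptor of the complement fragment C5a, Ptafr, the receptor of platelet-activating factor, and Fcgr3a, a low-affinity IgG receptor. Their list had a median log2 change of 1.56, and 7 of the 9 rose without TAE replicate 2 and 6 without TAE replicate 3. Over all genes, 2.7% passed as higher with all libraries, 14.6% without TAE replicate 2 and 4.82% without TAE replicate 3. C5ar1 stood at 9.14, 15.3 and 10.5 FPKM in HCC and 46.7, 31.2 and 48.7 FPKM in TAE (edgeR log2 change 1.84 ± 0.30, adjusted p = 0.0388). Ptafr stood at 10.5 ± 1.81 and 33.3 ± 7.74 FPKM, a log2 change of 1.63. These genes are expressed by macrophages as well. Receptors more restricted to granulocytes did not pass with all 6 libraries or had too few counts. Ltb4r, a leukotriene B4 receptor, had 5, 11 and 10 counts in HCC and 35, 22 and 28 in TAE (edgeR log2 change 1.47, adjusted p = 0.117). It reached the minimum of the low-count filter in 2 HCC libraries and in all 3 TAE libraries, and it rose without TAE replicate 2. Cxcr2, a chemokine receptor of neutrophils, had 29, 30 and 41 counts in HCC and 46, 43 and 22 in TAE (edgeR log2 change -0.10, adjusted p = 0.876). Cxcr1 had 0 to 3 counts and Fpr1, a formyl peptide receptor, 0 to 3 counts per library.

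Of 8 further entries of the primary granule list 2 were tested. Serpinb1a, which is on the list although its product is cytosolic, encodes an inhibitor of neutrophil serine proteases that other cells make too. It rose from 26.6 ± 1.40 to 86.8 ± 16.8 FPKM (edgeR log2 change 1.68 ± 0.23, adjusted p = 0.0388), the only call in this list with all libraries. Np4, a neutrophil defensin, had 1, 2 and 4 counts in HCC and 12, 19 and 40 in TAE (edgeR log2 change 3.07 ± 0.72, adjusted p = 0.0662). Np4 reached the minimum of the low-count filter in the TAE libraries alone, so its test was conditioned on the group where it is high, and defensin genes are near-identical copies, so its value as a single gene is uncertain. Elane, neutrophil elastase, had 0 counts in every HCC library and 6, 1 and 6 in TAE, and Ctsg, cathepsin G, had 0, 1 and 0 against 10, 5 and 25. These counts were low. The 1 count of Elane in the second TAE library was under the floor of 3 counts and is not set above the controls. Ctsg was above the controls in every TAE library, as were 22.1% of the genes with enough counts to be tested. Prtn3 and Ms4a3 had at most 3 counts anywhere. Without TAE replicate 2, all 3 tested genes of this list rose (Np4, RatNP-3b and Serpinb1a), where 14.6% of all genes passed as higher. Np4 and RatNP-3b were below the filter minimum in every HCC library, so these 2 calls were conditioned on the TAE libraries. Without TAE replicate 3, Serpinb1a alone rose, where 4.82% of all genes did.

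None of the 6 tested genes among 9 further secondary and tertiary granule genes of the table passed (0 higher and 0 lower in edgeR, 3 at an unadjusted p of 0.05). Lcn2, an iron-siderophore binding protein that hepatocytes also secrete, stood at 86.0, 81.9 and 87.9 FPKM in HCC and 397, 146 and 624 FPKM in TAE (edgeR log2 change 2.21 ± 0.53, adjusted p = 0.0693). Every TAE library was above every control, as for 22.1% of all tested genes, and the second was again the lowest of them. Mmp9, a gelatinase, stood at 0.55, 1.49 and 0.79 FPKM in HCC and 17.5, 2.85 and 4.51 FPKM in TAE (edgeR log2 change 3.08 ± 0.75, adjusted p = 0.0712), with the first TAE library highest, as for Il1r2. Ngp, a granule protein, had 2, 0 and 3 counts against 13, 7 and 34. Padi4, an enzyme of neutrophil extracellular traps, had a log2 change of -0.54 (edgeR adjusted p = 0.452). Without TAE replicate 2, Lcn2, Mmp9 and Ngp rose and Padi4 fell (14.6% of all genes then passed as higher and 9.56% as lower). Ngp was below the minimum of the low-count filter in every HCC library, so its call was conditioned on the TAE libraries. Without TAE replicate 3, Lcn2 and Mmp9 rose (4.82% of all genes passed as higher) and Padi4 did not pass.

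**Figure D3:**
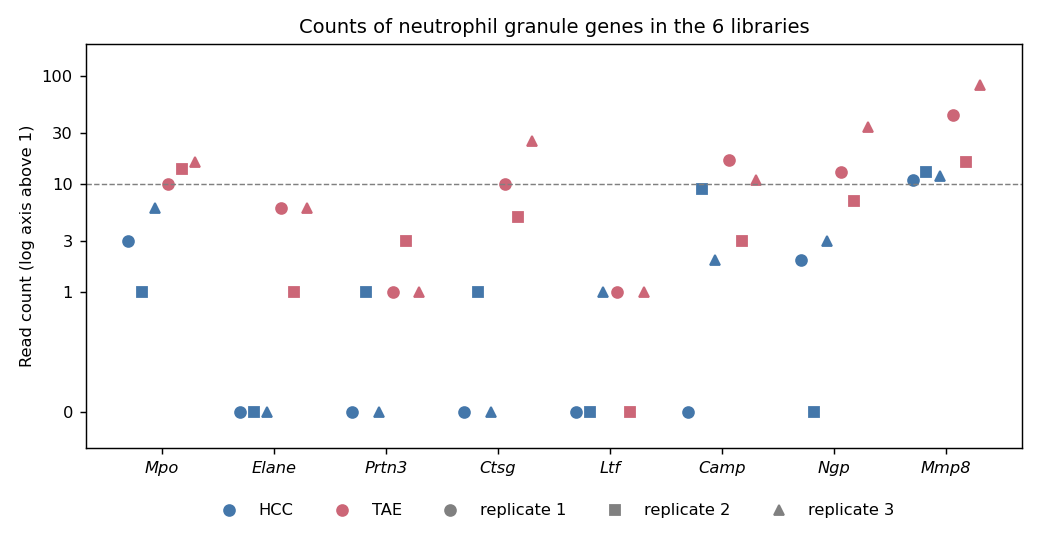
Read counts (vertical axis, logarithmic above 1) of 8 neutrophil granule genes in the HCC (blue) and TAE (red) libraries, with symbols for replicate numbers and a dashed line at 10 counts. Of these genes Mmp8 alone lies above the line in all 6 libraries, Elane is at 0 in all 3 HCC libraries, and Ltf has at most 1 count anywhere.

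None of 7 tested neutrophil attractants and growth factors passed (edgeR, 1 at an unadjusted p of 0.05), and their median log2 change was -0.12. The gene under 0.05 unadjusted was Cxcl6, a chemokine, at 1.24, 4.35 and 2.70 FPKM in HCC and 16.5, 6.24 and 4.12 FPKM in TAE (edgeR log2 change 1.61 ± 0.60, adjusted p = 0.176), where the third TAE library lay within the HCC range. Csf3, which encodes G-CSF, averaged 0.983 ± 0.401 FPKM in controls and 0.803 ± 0.220 after embolization (edgeR log2 change -0.35, adjusted p = 0.636). Cxcl1, a chemokine ligand of CXCR2, stood at 29.9 ± 6.97 and 27.1 ± 3.50 FPKM. Cxcl2, another ligand of CXCR2, stood at 0.78, 2.43 and 1.52 FPKM in HCC and 16.5, 2.81 and 1.12 FPKM in TAE, again with only the first TAE library clearly high. Of the 6 other genes of the IL-1 system none passed (edgeR, 2 at an unadjusted p of 0.05). Il1b, a ligand that IL1R2 captures, stood at 43.7 ± 5.08 and 48.3 ± 12.5 FPKM, and Il1rn, the receptor antagonist, at 35.7 ± 3.58 and 89.8 ± 40.3 FPKM (edgeR log2 change 1.33, adjusted p = 0.0964). Il1rn alone of these 6 passed without TAE replicate 2 and without TAE replicate 3.

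Downstream of the receptors, none of 6 G-CSF signalling genes passed (edgeR, 2 at an unadjusted p of 0.05), with Stat3, the main transcription factor of this pathway, at a log2 change of -0.03. Of 5 tested TREM-1 signalling genes 3 rose (2.7% of all tested genes did), with a median of 1.10 over the 5. Tyrobp, the adaptor of TREM-1 and of several macrophage receptors, rose from 85.4 ± 6.28 to 211 ± 34.8 FPKM (edgeR log2 change 1.28, adjusted p = 0.0394), Syk, the kinase it recruits, rose with a log2 change of 1.44 and Card9, a further adaptor, with 1.10. Pglyrp1, a proposed ligand of TREM-1 from neutrophil granules, had 3 to 10 counts per library and was not tested. None of 5 genes of S100A8 and S100A9 receptors and partners passed (edgeR, 2 at an unadjusted p of 0.05), with Tlr4 at a log2 change of 0.46, and none of 5 other tested collagenase and inhibitor genes passed (edgeR, 2 at an unadjusted p of 0.05). Without TAE replicate 2, 14.6% of all genes passed as higher. Then 2 G-CSF signalling genes, 1 gene of the S100A8 and S100A9 receptors and partners and 3 collagenase and inhibitor genes rose. Without TAE replicate 3, when 4.82% of all genes passed as higher, the numbers were 0, 0 and 1.

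Of 7 granulocyte transcription factors, Spi1, which encodes PU.1 of macrophages and neutrophils alike, rose from 19.4 ± 1.58 to 46.1 ± 4.41 FPKM (edgeR log2 change 1.22, adjusted p = 0.0388). Cebpe, the factor of late granulocyte differentiation, had 8, 7 and 11 counts in HCC and 31, 19 and 37 in TAE (edgeR log2 change 1.53 ± 0.45, adjusted p = 0.108). All 3 TAE libraries were above the controls for Cebpe, as for 22.1% of all tested genes. Cebpe passed the low-count filter only through the TAE libraries (1 of 3 HCC libraries reached the minimum). Cebpd, Cebpe and Spi1 rose without TAE replicate 2 (14.6% of all genes did), and Spi1 alone without TAE replicate 3 (4.82%).

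Markers of other cell types moved between the same libraries. Of 16 macrophage and monocyte markers 8 rose (median log2 change 1.22), where 2.7% of all tested genes did. Positive log2 changes were found for 12 of the 16, as for 46.9% of all tested genes. Those of Clec4f (-0.38), Cd5l (-0.13), Cd163 (-0.10) and Marco (-0.05) were negative, so the list did not move as a whole. The summed level of the 16 markers was 1497 to 1735 FPKM in HCC and 4219 to 5983 FPKM in TAE. Most of this sum came from Lyz2 (801 ± 124 and 3226 ± 388 FPKM) and Gpnmb (173 ± 26.1 and 882 ± 277 FPKM). The mean of the list relative to HCC was 0.89, 0.35 and 1.68 (log2) in TAE replicates 1 to 3. Relative to the HCC mean, S100a8 stood at 1.98, 0.42 and 2.58, S100a9 at 1.63, -0.03 and 1.99, Trem1 at 1.12, 0.98 and 1.82, and Il1r2 at 2.52, 0.49 and 0.25 in the same libraries. TAE replicate 3 was highest and TAE replicate 2 lowest of the TAE libraries for S100a8, S100a9, Trem1, Mmp8 and the macrophage list, but also for the hepatocyte, red cell, platelet, mast cell and eosinophil lists, so this order was not particular to macrophage genes. Il1r2 had another order. Of 5 tested mast cell markers Mcpt1, whose family has close relatives, rose, and the summed level of their list was 13.9 to 16.1 FPKM in HCC and 44.3 to 98.3 in TAE. The eosinophil list summed to 3.44 to 5.31 and 6.52 to 10.8 FPKM with none of 3 tested genes passing (edgeR, 1 at an unadjusted p of 0.05). Of this sum Siglec5 made up most (2.61 ± 1.35 and 8.13 ± 2.77 FPKM), while Il5ra and Ccr3 had log2 changes of -0.72 and -0.11 and the list a median of -0.11. Siglec5 rose and Il5ra fell without TAE replicate 2 (14.6% of all genes then passed as higher and 9.56% as lower). The eosinophil genes Prg3 and Ear1 had no count. Hepatocyte markers summed to 23591 to 29252 FPKM in HCC and 13929, 10376 and 30374 FPKM in TAE, with no gene passing (edgeR, 2 of 12 at an unadjusted p of 0.05). Without TAE replicate 3, 8 of the 12 hepatocyte markers fell, Alb and Ttr among them (median log2 change -1.17), where 3.51% of all genes passed as lower.

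Blood markers were given because neutrophils circulate. The summed level of 7 red cell genes was 437, 356 and 524 FPKM in HCC and 455, 316 and 1183 FPKM in TAE, high in the third TAE library alone, and none passed (edgeR, 0 at an unadjusted p of 0.05). In the first TAE library the red cell sum lay within the HCC range. How far blood content contributed to S100a8 and S100a9 in any library was not tested. Of the platelet genes Pf4, a chemokine that macrophages can make too, rose from 8.76 ± 2.99 to 47.5 ± 17.6 FPKM (edgeR adjusted p = 0.0394), while Itga2b, the only other platelet gene tested, stood at 3.97 ± 0.96 and 3.75 ± 2.73 FPKM (edgeR log2 change -0.05, adjusted p = 0.962) and Ppbp, Gp9, Gp1bb and Tubb1 had at most 6 counts in any library. T and NK cell markers summed to 143 to 206 FPKM in HCC and 269 to 445 in TAE, and B and plasma cell markers to 14.2 to 21.2 and 37.0 to 145 FPKM, with none passing (edgeR, 3 in each list at an unadjusted p of 0.05). Most of the T and NK cell sum came from Cd8a (66.4 ± 16.0 and 161 ± 36.1 FPKM) and Cd4 (28.5 ± 3.15 and 72.0 ± 24.0 FPKM), whereas Cd3e, a chain of the T cell receptor complex, stood at 12.2 ± 2.95 and 13.3 ± 4.76 FPKM. Without TAE replicate 2, 10 macrophage, 5 mast cell, 3 T and NK cell and 3 B and plasma cell genes rose, where 14.6% of all genes did. Of the last, 2 (Ms4a1 and Mzb1) were below the filter minimum in every HCC library. Without TAE replicate 3 the numbers were 9, 3, 2 and 1 (4.82% of all genes), while 2 macrophage genes, Clec4f and Marco, fell (3.51% of all genes). The part of macrophages, blood or other cells in the levels of the 9 genes was not tested.

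**Figure D4:**
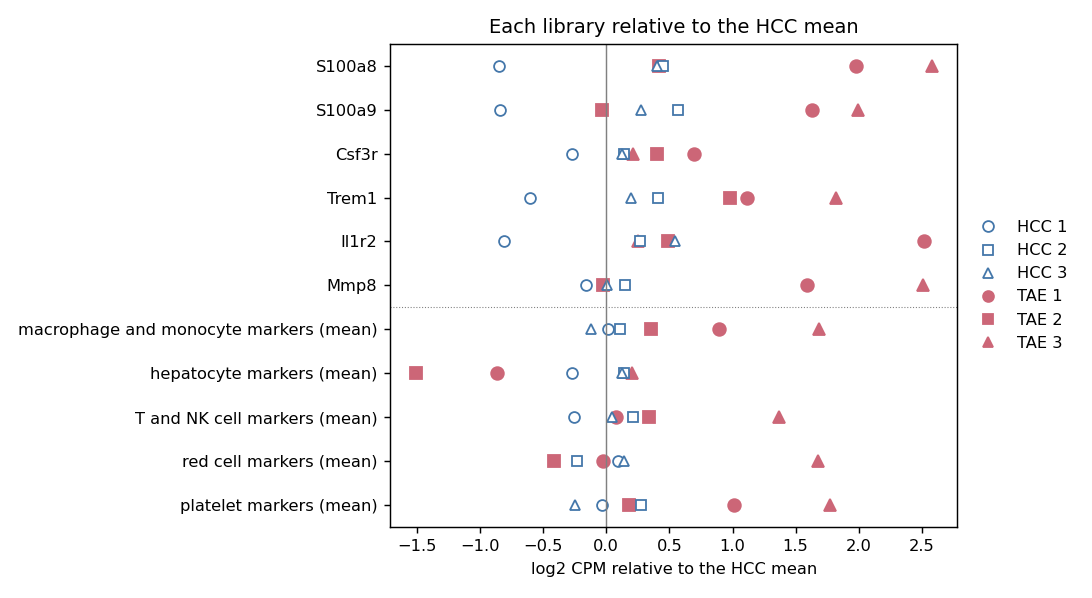
Log2 CPM (TMM-scaled, horizontal axis) of each library relative to the HCC mean for the 6 tested genes (above the dotted line) and the mean of marker lists of other cells (below it), with open blue symbols for HCC and filled red ones for TAE. The third TAE library is highest for S100a8, S100a9, Trem1, Mmp8 and every list shown, and the first is highest for Csf3r and Il1r2.

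The profiles of the 6 genes over the 6 libraries were compared by the root mean square distance of their centred log2 CPM values, as a description. S100a8 and S100a9 lay 0.25 apart and Mmp8 lay 0.40 from each of them, whereas Csf3r lay 0.96 and Il1r2 0.94 from S100a8. Among 11730 other genes, those nearest to S100a8 were Mdk, Ctsk and Cpz (0.29 to 0.30), and those nearest to S100a9 were Bmp6, Sfrp1 and Slc4a5 (0.23 to 0.26). Nearest to Csf3r were Arid5a and Cdc42ep5 (0.07 and 0.08), and nearest to Trem1 were Cd8a, Kcns3 and Tlr7 (0.14 to 0.18). Sds, Ap1m2 and Cdh3 were nearest to Il1r2 (0.19 to 0.35), and Adamtsl2 and Lcn2 to Mmp8 (0.26 and 0.30). Of the neighbours named here, Lcn2 is the only entry of the neutrophil lists.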

How the data were processed

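RNA of 6 rat liver samples was poly(A)-selected and sequenced as strand-specific paired-end libraries, per the labels' protocols. The authors deposited 1 table that holds, per the file headers, raw read counts and FPKM per gene and library. The deposited FPKM equalled the count scaled to exonic size and total count (100% of values within 0.006). The build mRatBN7.2 is named in the submitters' processing notes, but gene ends on chromosome 1 reach 282724300, beyond that build's chromosome as known, so the build of the table's coordinates is not settled. For the aligner, the counter and its strand setting, no name was found in the labels or the file header.

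Counts of TAE were compared with those of HCC in edgeR 4.0.16 under R 4.3.3 (quasi-likelihood test, two-sided, TMM scaling, filterByExpr, no replicate block). P-values were adjusted over all genes tested by Benjamini-Hochberg, and the threshold was 0.05. Standard errors are the absolute log2 change divided by the square root of F. Alternatives were other scalings and filters, DESeq2 1.42.0, limma 3.58.1 on log2(FPKM + 1) or log2(FPKM + 0.1) where the mean FPKM reached 0.5, a replicate block and leaving out each library. The fit was tested on simulated data with a common dispersion (biological coefficient of variation 0.24). It recovered 49.25% of 2-fold and 98.48% of 4-fold changes and called 0.0768% of unchanged genes. Genes more variable than that were not simulated. Every pair of replicates differed by more than sampling noise (smallest chi-square per degree of freedom, 5.69). Intervals and floors cover counting error only, and reads without molecular identifiers are not independent molecules.

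Genes, lists and tests were chosen with earlier results of these data known, and no list was tested as a set. Of 170 entries in 19 lists, 164 matched a symbol and 6 were not analysed here. Named genes were the 9 genes, up to 3 genes per list that passed (by smallest p), and the 3 nearest profiles among named genes with a mean FPKM of at least 1, some of which are not reported here. Other list genes are examples chosen after their values were seen. Windows before gene starts came from RefSeq (GRCr8).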

Additional observations from a re-analysis of the deposited data

How the results depend on the processing

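All 89 log2 changes of the 6 tested genes under the alternatives were positive, and 10 of them passed; Csf3r and Il1r2 passed in none. The log2 change was 1.34 to 2.23 for S100a8, 0.94 to 1.72 for S100a9, 0.30 to 0.57 for Csf3r, 1.03 to 1.54 for Trem1, 0.29 to 1.79 for Il1r2 and 0.65 to 2.27 for Mmp8, where the lowest value comes from limma on log2(FPKM + 1), which shrinks low genes. The number of the 9 genes that passed was 0 in the main test, 1 (Trem1) with total-count scaling, without a low-count filter and with limma on log2(FPKM + 1) or log2(FPKM + 0.1), 2 with DESeq2, and 0 to 4 with each library left out. Over all genes, 437 passed in the main test, 720 with upper quartile scaling, 1036 with total-count scaling, 829 without a filter, 1763 with DESeq2, 701 and 709 with limma on log2(FPKM + 1) and log2(FPKM + 0.1), and 0 to 3569 with each library left out; the cause was not tested.

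A pairing of the samples by replicate number was not shown. Deviations of same-numbered samples from their group means correlated at 0.15, -0.24 and 0.06, and only replicate 1 of each group correlated best with its own number. With 3 libraries per group these correlations cannot exclude a shared animal or batch. With the replicate number as a block edgeR called 0 genes (2984 at an unadjusted p of 0.05), and 0 of the 9. At 3 libraries per group and 0 to 17 counts, Mpo, Camp and Ltf are limited by depth.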
